A study of Canis lupus familiaris with 25 samples.

Results

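Integrins and laminins are the genes of cell adhesion to the basement membrane that were followed here across canine glandular tumors. The members were taken by name alone, as every row of the table of counts named as an integrin alpha chain, an integrin beta chain or a laminin chain. There were 38 of them among 24532 genes. The 37 described below comprised 18 integrin alpha chains, 8 integrin beta chains and 11 laminin chains, and all 37 were found by symbol in the RefSeq gene table of the dog.

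Laminins are the large glycoproteins that form the sheet on which epithelial, muscle and endothelial cells rest, and each is built of an alpha, a beta and a gamma chain. Integrins are the cell surface receptors that bind such matrix, each of them a pair of an alpha and a beta chain. In skin, LAMA3 and LAMB3 are chains of the laminin that is held by the integrin of ITGA6 and ITGB4 in the hemidesmosome, the anchor that ties the keratin filaments of basal keratinocytes to the dermis.

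The data are QuantSeq 3′ libraries of bulk RNA from formalin-fixed, paraffin-embedded (FFPE) tumors of dogs. Hepatoid gland adenoma (HGA), a benign tumor of the perianal glands, which are modified sebaceous glands, was represented by 10 samples, and apocrine gland anal sac adenocarcinoma (AGASAC), a malignant tumor, by 11 primary tumors. Another 4 samples were sublumbar lymph node metastases, which came from the same dogs as AGASAC 1 to 4. No treatment and no normal gland was among the samples.

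The dogs with HGA were 8 to 14 years old (median 12), and comprised 4 males and 2 females not labelled as neutered, 1 neutered male and 3 neutered females. The dogs with primary AGASAC were 8 to 12.5 years old (median 10), with 0 males and 2 females not labelled as neutered, 6 neutered males and 3 neutered females. The dogs of the metastases were 8 to 10 years old (median 9). Tumor type therefore cannot be told apart from what goes with it in age, sex and neutering. Samples came from different breeds, and RNA was taken from entire cross sections, so that fewer cells of a type and less RNA per cell cannot be told apart in any value below.

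The total count per sample was 1562347 to 6389555 in HGA, 2581453 to 4218340 in AGASAC and 2857541 to 3289546 in the metastases. Levels are given as CPM, the count scaled to a common library total, with library sizes scaled by trimmed means of M-values (TMM) over all 25 samples. QuantSeq 3′ yields a fragment near the end of each transcript, so that CPM was not divided by gene length, and levels of different genes compare transcripts only as far as their ends are captured and annotated equally well. The limit that 3 counts set lay between 0.543 and 1.84 CPM over the HGA libraries. The marker lists of the tumor types were chosen with earlier results of these data known, so that their values are a description. The summed CPM of 5 hepatoid gland markers was 1277 to 29753 in HGA and 266 to 910 in primary AGASAC, where HGA 10 had the lowest HGA value and HGA 4 the next at 7701. DHRS2 had the highest HGA median of this list, at 14618 CPM. MC5R of the same list overlapped between the groups, with medians of 38.1 CPM in HGA and 14.7 CPM in AGASAC. The summed CPM of 5 keratins and surface genes of simple gland epithelium was 409 to 731 in HGA and 3556 to 6221 in AGASAC. KRT5, KRT14 and TP63 of the 4 basal keratinocyte markers were higher in HGA, and the list summed to 3067 to 12799 CPM in HGA and to at most 33.3 CPM in AGASAC.

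The first comparison addressed how the tumor types differ. A gene was called at a log2 fold change (log2FC) of at least 1 or at most −1 and an adjusted p of at most 0.05, with positive values for higher levels in HGA. Of the 37 members, 25 passed the filter on low counts and 12 did not. Between HGA and AGASAC, 8 of the 25 were called, 6 higher and 2 lower in HGA. Over all 12070 genes tested, 25.1% were called, 12.6% higher and 12.5% lower. The median log2FC was 0.33 over the members tested and −0.03 over all genes tested. The members higher in HGA were the laminin chains LAMA3, LAMB3 and LAMA5, the hemidesmosomal integrin chains ITGA6 and ITGB4, and ITGB5, and the members lower in HGA were ITGAM and ITGA8. The CPM of HGA and AGASAC did not overlap in ITGA6, ITGB4, ITGB5 and LAMB3, that is in 4 of the 25 members and in 9.13% of all genes tested. The cutoff of the filter, 3.71 CPM, was reached by LAMB3 in 2 and by LAMA3 in 4 of 11 AGASAC, and by ITGAM in 2 and by ITGA8 in 4 of 10 HGA. These 4 entered the test mainly through the group where they were high, so that the counts over the members tested are a description.

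**Figure D1:**
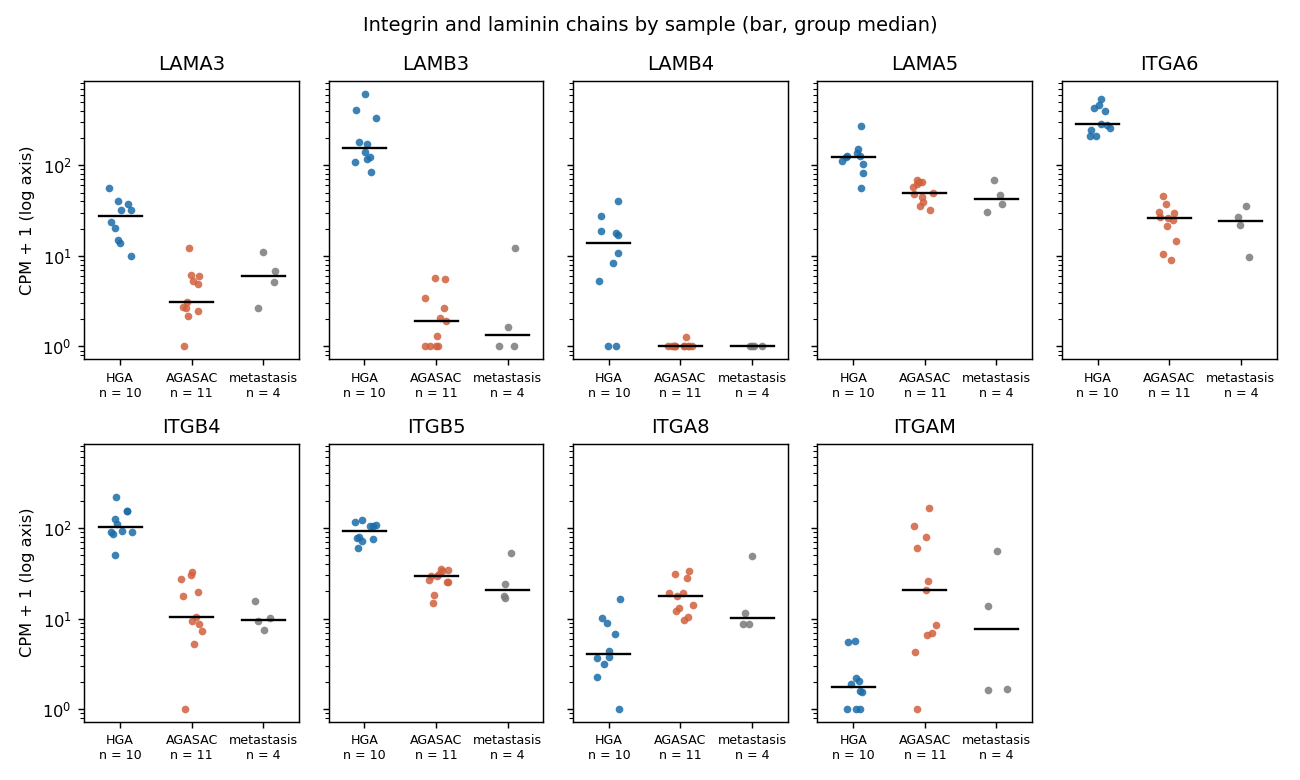
CPM + 1 on a log axis in every sample of HGA (n = 10), primary AGASAC (n = 11) and the metastases (n = 4) for the 8 members called between HGA and AGASAC and for LAMB4, with a bar at the group median. The HGA points of ITGA6, ITGB4, ITGB5 and LAMB3 lie above all AGASAC points, whereas the groups overlap in the other members.

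Among the laminin chains called, LAMB3, a beta chain of keratinocytes, showed the widest difference. Its level was 82.3 CPM at the lowest, 154 at the median and 616 at the highest in HGA, and 0, 0.904 and 4.73 CPM in AGASAC, where 4 of 11 tumors were at 0. Every HGA was above every AGASAC. The log2FC was 7.34 (SE 0.65, adjusted p = 3.1e-08). In the metastases, LAMB3 was at 0 in 2 of 4 samples and reached 11.2 CPM in metastasis 4.

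LAMA3, the alpha chain that assembles with LAMB3, was at 9.04, 26.8 and 54.6 CPM (lowest, median and highest) in HGA. In AGASAC it was at 0, 2.08 and 11.1 CPM, so that the lowest HGA lay below the highest AGASAC. The log2FC was 3.01 (SE 0.47, adjusted p = 0.00013).

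Basal keratinocyte markers, which moved in the same direction with the values above, are made by the cells known for these chains, and their part in the differences of LAMA3 and LAMB3 was not tested.

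LAMB4, a beta chain whose place in laminin assembly is less well defined, did not pass the filter in this comparison, since its cutoff of 3.71 CPM was reached in 7 of 10 HGA and 0 of 11 AGASAC. DESeq2 and the fit without a filter called it higher in HGA. LAMB4 reached the cutoff in HGA alone, so that these calls are no support for the difference. It reached 39.5 CPM in HGA 9, with a median of 13.0 CPM, and was at 0 in HGA 4 and HGA 10. Of 11 AGASAC, 10 were at 0 and AGASAC 4 had 1 count. Against the limit of 3 counts per library, the HGA mean of 13.8 CPM was at least 14.8-fold higher. LAMB4 was at 0 in all 4 metastases.

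LAMA5, the alpha chain of many epithelial and endothelial basement membranes, was the most abundant laminin alpha chain, with a median share of 54.4% of the laminin alpha CPM in HGA and 50.8% in AGASAC. It was at 54.6, 124 and 267 CPM in HGA and at 31.4, 48.0 and 67.8 CPM in AGASAC. HGA 10, the lowest HGA, fell within the AGASAC range. The log2FC was 1.36 (SE 0.22, adjusted p = 0.00018).

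LAMC1, the gamma chain that most laminins share, passed the threshold on p but not that on fold. It was at 60.3, 129 and 149 CPM in HGA and at 34.4, 60.0 and 96.1 CPM in AGASAC, with a log2FC of 0.97 (SE 0.18, adjusted p = 0.0013). LAMB4 and LAMB1 are neighbours in the annotation, as are ITGAX and ITGAM. LAMC1 was called when HGA 1, HGA 4, AGASAC 5 or AGASAC 6 was left out.

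The remaining laminin chains were not called. LAMA4, made by endothelium and mesenchymal cells, had a log2FC of 0.73 (SE 0.27, adjusted p = 0.33), and LAMB2 one of 0.68 (SE 0.25, adjusted p = 0.30). LAMA2, the alpha chain of muscle and nerve, had a median of 19.5 CPM in HGA and 14.2 CPM in AGASAC, and LAMB1, the common beta chain, had medians of 86.2 and 36.1 CPM. LAMB1 varied most among the AGASAC, from 15.0 CPM in AGASAC 10 to 361 in AGASAC 11 and 127 in AGASAC 6, and its log2FC was 0.33 (SE 0.44, adjusted p = 1). LAMC3 and LAMA1 were too low to be tested, with at most 7.99 and 6.15 CPM in any HGA and at most 4.48 and 0.243 CPM in any AGASAC.

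Endothelial markers summed to 224 to 598 CPM in HGA and 55.9 to 249 in AGASAC, with TIE1 and CDH5 higher in HGA among 6 tested. Their part in the values of LAMA4, LAMA5 and LAMC1 was not tested.

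The shares of the chains within their families differed as well. LAMB3 made up a median of 47.8% of the summed laminin beta CPM in HGA (32.8% to 82.9%) and 0.616% in AGASAC (0% to 7.98%). The median sum of the laminin beta chains was 316 CPM in HGA and 73.5 CPM in AGASAC.

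**Figure D2:**
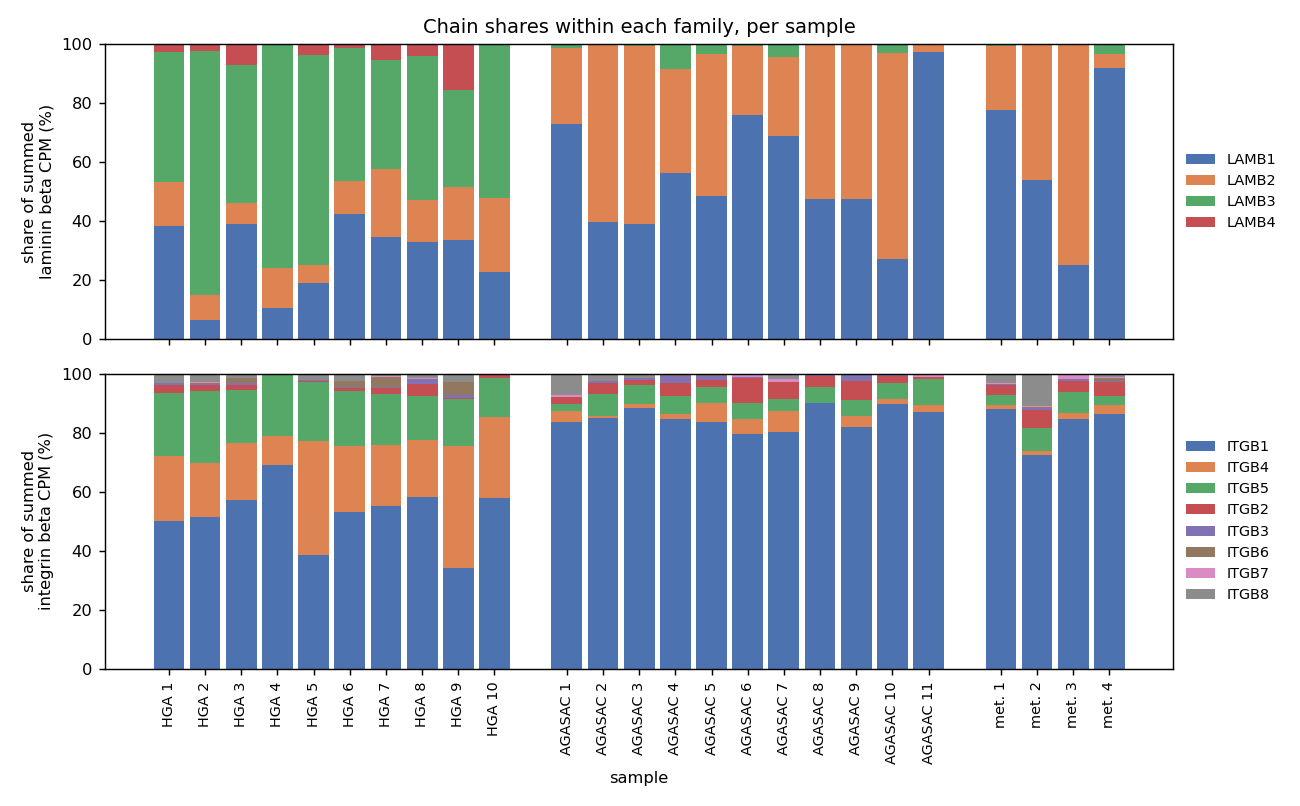
Share of each chain in the summed CPM of its family, in percent, for laminin beta and integrin beta chains, with a stacked bar per sample. LAMB3, ITGB4 and ITGB5 take larger median shares in HGA, and ITGB1 holds a median of 84.5% of the integrin beta CPM in AGASAC and 54.1% in HGA.

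ITGA6, the alpha chain of the main laminin receptors of epithelium, was the most abundant integrin alpha chain in HGA, with a median share of 52.2% of the integrin alpha CPM. It was at 211, 282 and 544 CPM in HGA and at 8.02, 25.5 and 45.1 CPM in AGASAC. The lowest HGA was thus well above the highest AGASAC. The log2FC was 3.81 (SE 0.29, adjusted p = 2.59e-09).

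ITGB4, the beta chain that pairs only with ITGA6, was at 49.8, 101 and 221 CPM in HGA and at 0, 9.45 and 31.6 CPM in AGASAC. The groups did not overlap, and AGASAC 8 was at 0. The log2FC was 3.04 (SE 0.45, adjusted p = 7.5e-05). Its median share of the integrin beta CPM was 21.5% in HGA and 2.18% in AGASAC.

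ITGB1, the beta chain shared by most matrix receptors, was lower in HGA by less than the fold threshold. It was at 126, 253 and 351 CPM in HGA and at 310, 402 and 459 CPM in AGASAC, with a log2FC of −0.59 (SE 0.15, adjusted p = 0.020). The summed integrin beta CPM had medians of 495 in HGA and 468 in AGASAC.

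The other laminin-binding chains were not called. ITGA3, which pairs with ITGB1 in epithelia, was at 23.2, 48.2 and 85.5 CPM in HGA and at 42.4, 73.7 and 114 CPM in AGASAC (log2FC −0.54, SE 0.24, adjusted p = 0.70). ITGA7, a laminin receptor of muscle, was at 26.7, 38.1 and 62.6 CPM in HGA and at 4.52, 26.2 and 81.0 CPM in AGASAC (log2FC 0.30, SE 0.33, adjusted p = 1). Skeletal muscle markers summed to 7.78 to 832 CPM in AGASAC and 0 to 14.8 CPM in HGA, with ACTA1 and MYLPF lower in HGA, and their part in ITGA7 and LAMA2 was not tested.

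Among the chains of integrins that bind the RGD motif of matrix proteins, ITGB5 was higher and ITGA8 lower in HGA. ITGB5, which pairs with ITGAV as a receptor of vitronectin, was at 59.8, 91.8 and 121 CPM in HGA and at 13.9, 28.6 and 34.2 CPM in AGASAC. The groups did not overlap, and the log2FC was 1.80 (SE 0.17, adjusted p = 1.1e-07). ITGAV itself had nearly the same medians in HGA (195 CPM) and AGASAC (191 CPM), with a log2FC of 0.00 (SE 0.22, adjusted p = 1). In AGASAC it was the leading alpha chain, with a median of 44.6% of the integrin alpha CPM.

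ITGA8, an alpha chain of smooth muscle and mesenchymal cells that binds nephronectin, was at 0, 3.07 and 15.4 CPM in HGA and at 8.74, 16.8 and 32.5 CPM in AGASAC. HGA 4, the highest HGA, and HGA 8 at 9.04 CPM lay within the AGASAC range. The log2FC was −1.81 (SE 0.46, adjusted p = 0.025). The call was lost when any of HGA 1, HGA 2, HGA 3, HGA 5, AGASAC 3 or AGASAC 4 was left out, with adjusted p of up to 0.058, and adjusted p was 0.060 with the extraction batch as a term. Smooth muscle and myoepithelial markers had 0 of 5 genes called, and summed to 91.2 to 296 CPM in HGA and 62.1 to 476 CPM in AGASAC.

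The fibronectin receptor chain ITGA5 had medians of 11.3 and 9.44 CPM (log2FC 0.12, SE 0.36, adjusted p = 1), and ITGB8, a partner of ITGAV in the activation of TGF beta, had medians of 8.79 and 2.19 CPM (log2FC 0.39, SE 0.74, adjusted p = 1). ITGB6, another epithelial partner of ITGAV, did not pass the filter. It was at 0 to 16.97 CPM in HGA with a median of 2.89, and at 0 in 8 of 11 AGASAC with at most 1.95 CPM. ITGB3 reached 7.39 CPM in HGA and 12.8 CPM in AGASAC, and the platelet chain ITGA2B at most 2.61 CPM in any sample of both groups. Neither was tested. Platelet markers summed to at most 7.21 CPM.

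ITGA1, ITGA2, ITGA10 and ITGA11 bind collagen, and 0 of the 3 tested were called. ITGA1 had medians of 17.2 CPM in HGA and 13.3 CPM in AGASAC. ITGA2 had medians of 2.85 and 7.05 CPM (log2FC −1.55, SE 0.61, adjusted p = 0.38). ITGA11, a collagen receptor of fibroblasts, had medians of 0.948 and 10.7 CPM (log2FC −2.16, SE 0.71, adjusted p = 0.15). HGA 4 and HGA 10 were the highest HGA in ITGA11 with 12.9 and 7.74 CPM, and 3 HGA were at 0. Fibroblast markers summed to 1207 to 5708 CPM in HGA and 1006 to 7906 CPM in AGASAC, with 0 of 6 called. ITGA10 was not tested, with at most 4.51 CPM in either group. ITGA9, a tenascin receptor, had medians of 4.15 and 2.29 CPM (log2FC −0.05, SE 0.57, adjusted p = 1), and ITGA4 was at 0 in 9 of 10 HGA and 9 of 11 AGASAC.

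Of the leukocyte integrins, ITGAM was lower in HGA. ITGAM pairs with ITGB2 as the complement receptor of neutrophils and macrophages. It was at 0, 0.737 and 4.70 CPM in HGA and at 0, 19.8 and 163 CPM in AGASAC. In AGASAC, 163 CPM were found in AGASAC 9, 103 in AGASAC 7 and 78.9 in AGASAC 3, while AGASAC 11 was at 0 and 4 others were at 3.32 to 7.52 CPM. The groups overlapped. The log2FC was −4.77 (SE 0.91, adjusted p = 0.0014).

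Its partner ITGB2 had medians of 7.50 CPM in HGA and 17.1 CPM in AGASAC (log2FC −1.28, SE 0.51, adjusted p = 0.43). ITGAX, another myeloid alpha chain of ITGB2, had medians of 5.03 and 15.8 CPM (log2FC −1.09, SE 0.45, adjusted p = 0.49). AGASAC 3 combined 78.9 CPM of ITGAM with 7.71 CPM of ITGB2, and AGASAC 6 combined 24.8 CPM of ITGAM with 44.8 CPM of ITGB2. The CPM of ITGAM was thus above that of its only partner chain in some tumors and below it in others. Whether the ends of both transcripts are captured equally well was not tested.

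Macrophage and neutrophil markers summed to 63.2 to 252 CPM in HGA and 115 to 340 CPM in AGASAC, with C1QB lower in HGA among 5 tested. The sum was 165 CPM in AGASAC 3 and 340 CPM in AGASAC 6. General leukocyte markers had 0 of 4 called and summed to 56.7 to 295 CPM in HGA (median 106) and 87.5 to 511.02 CPM in AGASAC (median 178), with the highest value in AGASAC 6. The part of these cells in ITGAM was not tested. The lymphocyte chains ITGAL, ITGAE and ITGB7 and the myeloid chain ITGAD were not tested, with at most 7.99 CPM in any HGA and 5.12 CPM in any AGASAC.

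**Figure D3:**
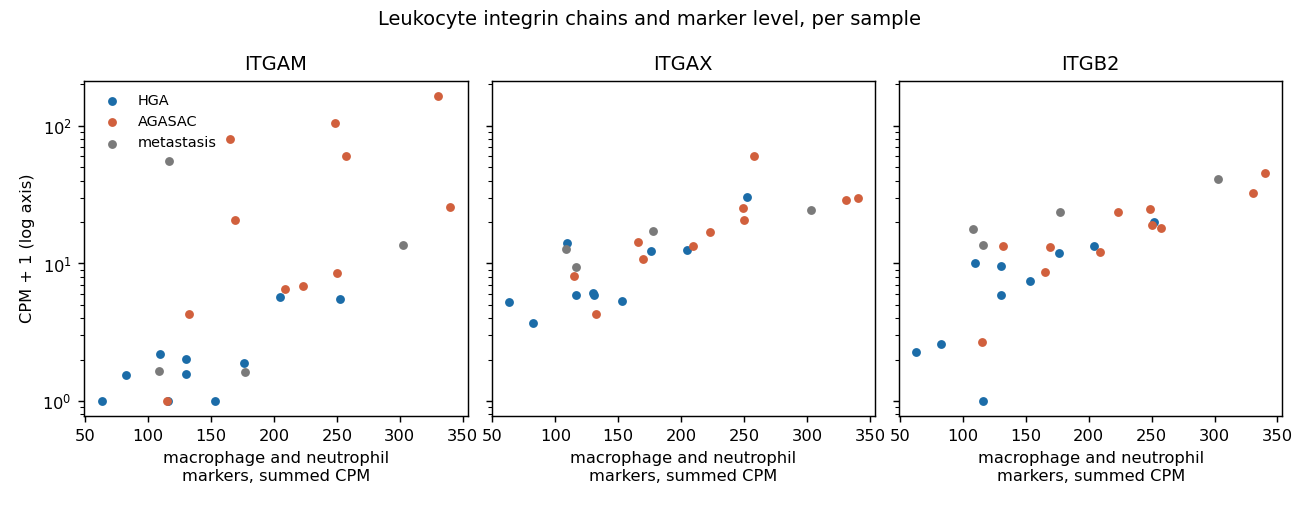
CPM + 1 of ITGAM, ITGAX and ITGB2 on a log axis against the summed CPM of 6 macrophage and neutrophil markers, with a point per sample. AGASAC 3 (165 CPM of markers) and metastasis 3 (116 CPM) have high ITGAM, at 78.9 and 54.7 CPM, beside ITGB2 of 7.71 and 12.5 CPM.

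The samples had been extracted in batches, 3 of which (5, 6 and 8) held at least 2 tumors of either type and batch 7 only 1 of either, too few for a value, and their names formed 2 series. Within extraction batches 5, 6 and 8 and within naming series A, each of the 8 called members kept its direction in 4 of 4 fits. The 8 were called in the comparison that holds these same tumors, and all tumors of series A except HGA 3 are also in batches 5, 6 and 8. The 4 fits are therefore not separate, and the shared direction is a description. The log2FC ranged from 3.28 to 4.34 in ITGA6, from 6.79 to 9.05 in LAMB3 and from 1.46 to 4.69 in LAMA3. It ranged from 2.49 to 3.57 in ITGB4, from 1.70 to 1.89 in ITGB5 and from 1.40 to 1.72 in LAMA5, and from −6.10 to −2.69 in ITGAM and −3.00 to −1.02 in ITGA8. With 2 or 3 tumors of a type, 0, 2 and 2 members were called in batches 5, 6 and 8, where 2.12%, 4.84% and 2.46% of all genes were. With 9 HGA and 3 AGASAC, 8 members and 16.1% of all genes were called in series A, and LAMB4 was among the 8 in place of ITGA8. LAMB4 was at 0 in these 3 AGASAC, so that its call is no support. Leaving out HGA 10, the HGA with the lowest hepatoid gland markers, left the same 8 members called.

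**Figure D4:**
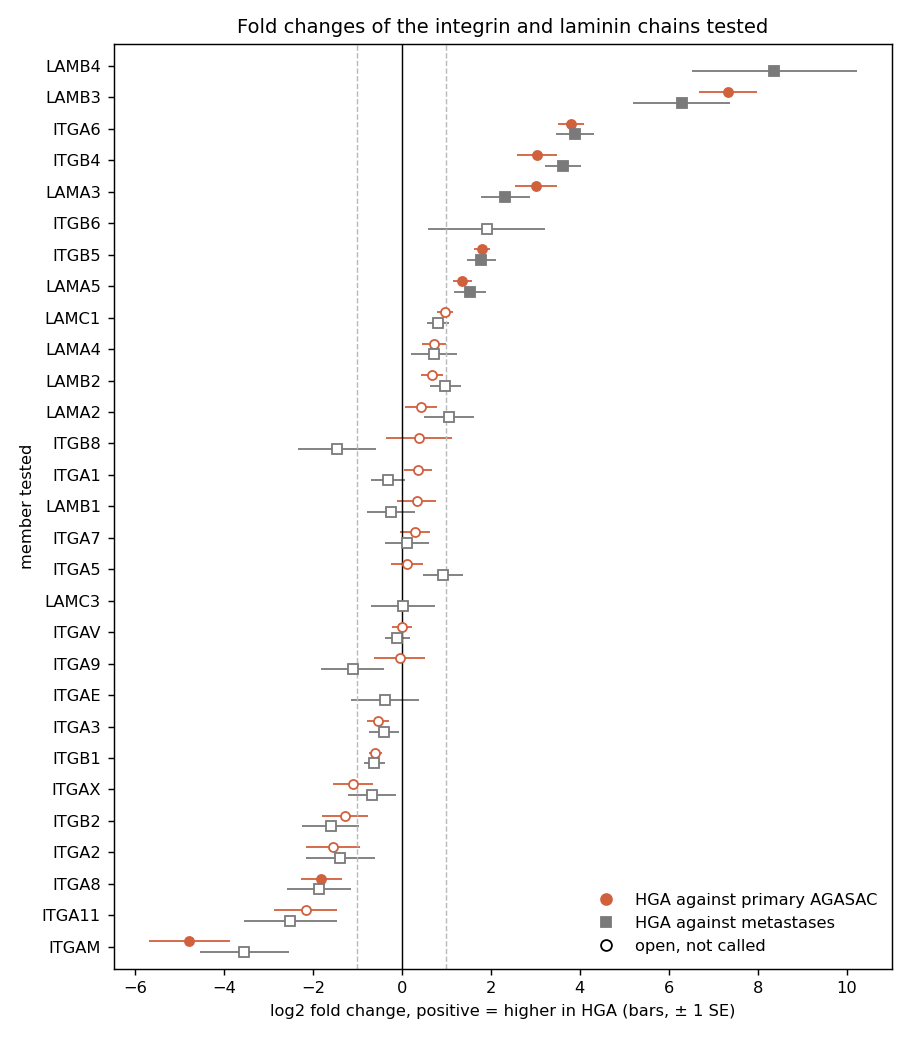
log2FC with its standard error for each member tested between HGA and primary AGASAC (circles) and between HGA and the metastases (squares), with positive values for higher levels in HGA and filled points for called members. Dashed lines mark a log2FC of −1 and 1. The 10 HGA are in both comparisons.

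Genes around these receptors were examined by lists. Of the hemidesmosome partners, PLEC, the plectin that links ITGB4 to keratin filaments, was higher in HGA (log2FC 1.06, SE 0.24, adjusted p = 0.0077), and DST, which encodes the dystonins, among them a hemidesmosomal antigen, was lower (log2FC −1.77, SE 0.32, adjusted p = 0.00092). PLEC was at 88.6 to 467 CPM in HGA and 76.0 to 199 CPM in AGASAC. DST was at 17.3 to 138 CPM in HGA and 80.0 to 317 CPM in AGASAC. The tetraspanin gene CD151 did not reach the fold threshold (log2FC −0.998, SE 0.19, adjusted p = 0.0016). COL17A1, the transmembrane collagen of the hemidesmosome, was not tested, at a median of 15.8 CPM in HGA and at most 2.43 CPM in AGASAC.

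Of 22 integrin activators and adaptors, 19 were tested, 2 were higher in HGA and 2 lower, a share near the 25.1% called over all genes. FERMT1, the kindlin of keratinocytes, was at 28.9 to 87.3 CPM in HGA and 0 to 16.1 CPM in AGASAC (log2FC 3.14, SE 0.49, adjusted p = 0.00015). TNS4, a tensin that binds beta chain tails, was at 19.7 to 31.4 CPM in HGA and at 0 in 11 of 11 AGASAC, so that the HGA mean was at least 27.0-fold higher than the limit of 3 counts per library. It passed the filter through HGA alone, so that its call is no support and the counts of this list are a description. ZYX, the focal adhesion protein zyxin (log2FC −2.08, SE 0.21, adjusted p = 1.8e-07), and ITGB1BP1, which binds the tail of ITGB1 (log2FC −1.10, SE 0.17, adjusted p = 0.00010), were lower. The other kindlins FERMT2 and FERMT3 and the talins TLN1 and TLN2 were not called, with log2FC between −0.76 and 0.19. The median log2FC of this list was −0.08, against −0.03 over all genes tested.

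Of 11 other basement membrane genes, 9 were tested, 3 were higher and 2 lower in HGA, where 12.6% and 12.5% of all genes were. The collagen IV chains split. COL4A5 was at 22.8 to 54.5 CPM in HGA and 1.43 to 20.5 CPM in AGASAC (log2FC 2.05, SE 0.36, adjusted p = 0.00053). COL4A6 was not tested. It had a median of 3.13 CPM in HGA (highest 30.1) and was at 0 in 8 of 11 AGASAC (highest 2.19). COL4A3 and COL4A4, which form a network with COL4A5 in other tissues such as kidney, went the other way. COL4A3 was at 0 in 9 of 10 HGA and at 1.63 to 65.4 CPM in AGASAC (log2FC −6.29, SE 0.86, adjusted p = 2.2e-05), and COL4A4 was at 0 to 16.5 CPM in HGA and at 8.60 to 104 CPM in AGASAC (log2FC −4.44, SE 0.81, adjusted p = 0.00081). COL4A3, at most 2.55 CPM in any HGA, entered the test through AGASAC, so that its call is no support. COL4A4 was at 0 in 6 of 10 HGA and at most 2.43 CPM outside HGA 9. It entered mainly through AGASAC, so that its call and the counts of this list are a description. The common chains COL4A1 and COL4A2 had log2FC of −0.06 and −0.09 (adjusted p = 1 in both). AGRN, which encodes agrin, and COL18A1, the collagen that yields endostatin, had log2FC of 1.80 (SE 0.24) and 2.02 (SE 0.30), with adjusted p of 1.3e-05 and 6.6e-05.

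Of 3 laminin receptors outside the integrins, MCAM, which endothelium and pericytes also express, was higher in HGA (log2FC 1.34, SE 0.34, adjusted p = 0.025). The endothelial markers moved with it, with 2 of 6 called higher and a median log2FC of 1.17, and their part in MCAM was not tested. DAG1, the dystroglycan gene, had a log2FC of 0.82 (SE 0.32, adjusted p = 0.37), and BCAM one of −1.09 (SE 0.37, adjusted p = 0.17). Of 13 integrin ligands, 8 were tested and 2 were lower in HGA, where 25.1% of all genes were called and 12.5% were lower. These were FN1, the fibronectin gene (log2FC −2.73, SE 0.53, adjusted p = 0.0016), and TGFB1 (log2FC −2.06, SE 0.48, adjusted p = 0.012), whose latent form is bound by ITGAV integrins. The median log2FC of the ligands was −0.93.

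Chains that assemble with each other were also compared within a tumor type, by correlations of log2(CPM + 1) in 7 relations over 10 HGA or 11 AGASAC. Pearson's r was between −0.37 (LAMA3 and LAMB3 in HGA, permutation p = 0.29) and 0.44 (ITGAE and ITGB7 in AGASAC, permutation p = 0.18), and 4 of 7 were positive. Spearman's rho for these pairs was −0.32 (permutation p = 0.37) and 0.37 (permutation p = 0.26). Without the 2 samples farthest from the median, r was −0.010 and 0.19. After Benjamini-Hochberg adjustment over the 7 relations, the lowest p was 0.67 for r and 0.77 for rho. A relation of partner chains within a tumor type was not detectable with these numbers of tumors.

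The second comparison set the 4 metastases against the primary AGASAC of the same dogs. The main fit did not pair the samples by dog, so that its SE and p are unpaired. A fit with the dog as a block was an alternative. Of 25 members tested, 0 were called, and 0% of the 12629 genes tested were called with edgeR. At an unadjusted p under 0.05 there were 0 members and 145 genes in all, and DESeq2 called 0 members and 5 genes in all. On simulated counts with 4 samples a group, 0 of 187 genes changed by a log2FC of 2 were called, and 148 of 185 changed by 4. Changes of 2 or less were thus not detectable in the unpaired fit. Sizes between 2 and 4 were not simulated, and the simulated samples were not paired by dog.

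The members with the largest absolute log2FC were LAMB1, LAMA2, ITGAE and ITGA9. LAMB1 was at 53.6, 27.5, 20.2 and 33.4 CPM in the primary tumors of dogs 1 to 4 and at 76.9, 39.0, 10.3 and 315 CPM in their metastases. The fitted log2FC of 1.72 (SE 0.86, adjusted p = 1) rested on dog 4, and it was 0.31 without metastasis 4 and 0.85 with the dog as a block.

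LAMA2 was lower in the metastasis in 4 of 4 dogs, at 10.5, 23.5, 25.2 and 43.1 CPM in the primary tumors and 6.81, 20.4, 5.79 and 13.4 CPM in the metastases. The log2FC was −1.13 (SE 0.53, adjusted p = 1). Skeletal muscle markers summed to 15.4 to 379 CPM in these primary tumors and 1.60 to 2.60 CPM in the metastases, and their part in LAMA2 was not tested. ITGAE, an integrin chain of intraepithelial lymphocytes, was higher in the metastasis in 3 of 4 dogs, at 2.92 to 6.07 CPM in the metastases and 0.278 to 5.12 CPM in the primary tumors (log2FC 1.11, SE 0.76, adjusted p = 1). T cell markers summed to 30.99 to 48.9 CPM in the metastases and 14.4 to 32.8 CPM in these primary tumors. In dogs 2 and 3 both ITGAE and these markers were higher in the metastasis. In dog 4 the markers went from 32.8 to 30.99 CPM while ITGAE rose, and in dog 1 from 19.0 to 37.3 CPM while ITGAE fell. The part of T cells in ITGAE was not tested. ITGA9 was higher in the metastasis in 4 of 4 dogs, at 2.11, 0, 7.71 and 10.6 CPM in the primary tumors and 2.60, 4.78, 21.6 and 10.9 CPM in the metastases. In dogs 1 and 4 the values were close to each other. The log2FC was 0.94 (SE 0.999, adjusted p = 1), and 0.24 without metastasis 3.

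Metastasis 2 stood apart in several chains. It held 48.0 CPM of ITGA8, 48.8 of ITGA11, 73.0 of ITGB8 and 65.8 of LAMA4, each the highest of the 4 metastases. Its fibroblast markers summed to 12911 CPM and its smooth muscle and myoepithelial markers to 736 CPM, the highest of all 25 samples. The part of these cells in the chains was not tested. Without this metastasis, 0 members were called as well.

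**Figure D5:**
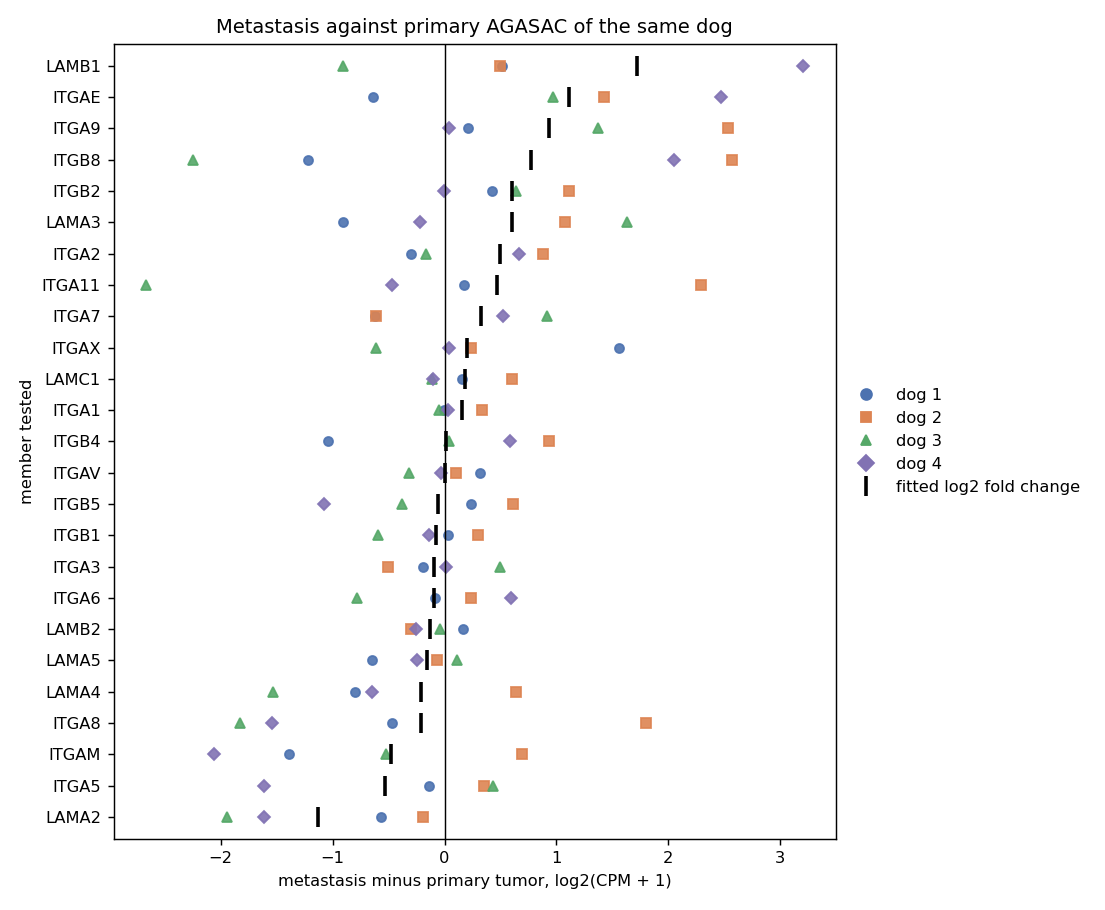
Difference in log2(CPM + 1) between the metastasis and the primary tumor of each of the 4 dogs for the 25 members tested. A black bar marks the log2FC of the unpaired fit. The dogs differ in direction in the other members, whereas LAMA2 is lower in 4 of 4 metastases and ITGA9 higher in 4 of 4.

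The third comparison set HGA against the metastases, with the same 10 HGA as the first. Of 29 members tested, 7 were called, and all 7 were higher in HGA. Over the 13195 genes tested, 16.1% were called, 8.4% higher and 7.69% lower in HGA. The 7 were ITGA6 (log2FC 3.89, SE 0.42, adjusted p = 3.6e-05), ITGB4 (log2FC 3.62, SE 0.40, adjusted p = 5.1e-05), LAMB3 (log2FC 6.29, SE 1.1, adjusted p = 0.0037), ITGB5 (log2FC 1.78, SE 0.33, adjusted p = 0.0057), LAMA3 (log2FC 2.33, SE 0.54, adjusted p = 0.036), LAMA5 (log2FC 1.53, SE 0.36, adjusted p = 0.036) and LAMB4. LAMB4, with 0 counts in 4 of 4 metastases, was at least 15.0-fold higher in HGA against the limit of 3 counts per library. LAMB4 passed the filter through HGA alone, so that its call is no support for the difference. LAMB3 reached the cutoff of 3.72 CPM in 10 of 10 HGA and 1 of 4 metastases. It thus entered the test mainly through HGA, and its call is a description.

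In the metastases, ITGA6 was at 8.76, 34.8, 25.7 and 21.1 CPM and ITGB4 at 8.44, 9.02, 6.43 and 14.7 CPM in dogs 1 to 4, below every HGA. ITGB5 reached 52.0 CPM in metastasis 2, still below the lowest HGA. ITGAM had a log2FC of −3.54 (SE 0.99, adjusted p = 0.12), at 0.649, 12.7, 54.7 and 0.639 CPM in the metastases.

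The calls of LAMB4, LAMA3 and LAMA5 in this comparison depended on single samples. LAMB4 was lost in 10 of 14 fits that left out a sample, and LAMA3 and LAMA5 in 8 each. The number of called members was 4 without HGA 7, without metastasis 1 or without metastasis 4, as these 3 were lost. The log2FC of LAMB3 was 9.89 without metastasis 4.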

How the data were processed

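QuantSeq 3′ libraries of 25 FFPE samples were used. Per the study's methods and the submitters' processing notes, the authors trimmed reads with cutadapt, aligned them to CanFam3.1 with STAR and counted them on genes with featureCounts, with a further round on annotation extended at the 3′ end and multi-mapped reads spread over their locations. The deposited values are whole counts per gene. The authors also deposited counts divided by a size factor (a normalized signal), the log2 fold change of their own comparison with its standard error, and its p-value, none of which was used, and 0 columns of per-sample values besides were left unused.

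The quasi-likelihood test of edgeR 4.0.16 (R 4.3.3) was run on the counts with TMM and filterByExpr (minimum count 10, minimum total count 15). The p-values were adjusted over all genes tested by the Benjamini-Yekutieli procedure, and a call needed an adjusted p up to 0.05 together with a log2FC up to −1 or from 1. All tests were two-sided. The standard error was taken as log2FC over the square root of F. Levels are CPM with TMM over the 25 samples. Fitted log2FC are not shrunken, and those of genes with a group at 0 are given as lower bounds against 3 counts, which cover counting error only. Permutation p of correlations came from 100000 resamples.

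HGA against AGASAC used the 21 primary tumors, as in the study, and each of the other comparisons had the 4 metastases, against AGASAC 1 to 4 and against HGA. A metastasis and the primary tumor of its number come from the same dog by the labels, and their deviations from the group means correlated at 0.424 to 0.710 across genes in 4 of 4 dogs. No duplicate library was found, since chi-square per degree of freedom was at least 9.33 within HGA, 19.2 within AGASAC and 24.8 within the metastases. The samples of a group are different dogs.

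On simulated counts, edgeR called 152 of 190 genes changed by a log2FC of 2 and 189 of 191 changed by 4 in HGA against AGASAC, and 60 of 184 and 165 of 181 in HGA against the metastases. Extraction batches and naming series are those of the study's sample table, where the series of AGASAC 4 was not used. The alternatives were RLE or library size alone, DESeq2 1.42.0, other filters, Benjamini-Hochberg adjustment, batch, block and sample choices. Every member was to be named, with full values for those called and, where none was called, for the 4 with the largest absolute log2FC. The members and all lists were chosen with earlier results of these data known. Of the 38 members, 1 is not reported here. Coordinates are not given, since the annotation used for names is of another assembly, UU_Cfam_GSD_1.0.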

Additional observations from a re-analysis of the deposited data

Results flagged for a closer look

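Dixon's test was run for 25 members in the 10 HGA and in the 4 metastases, and not in the primary AGASAC. It found 3 of 50 groups of values in which a sample lay far from the others of its group, and chance flags about 1 in 20 groups. ITGB1 was at 126 CPM in HGA 9, where the next lowest HGA had 222 CPM. LAMC1 was at 60.3 CPM in HGA 4, where the next lowest HGA had 99.7 CPM. Without HGA 4, LAMC1 passed the fold threshold. ITGA8 was at 48.0 CPM in metastasis 2, where the next highest metastasis had 10.5 CPM, and this sample also had the highest fibroblast marker sum (12911 CPM).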

How the results depend on the processing

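The number of members called between HGA and AGASAC was 8, and it was 3 when at least 10 counts in every sample were required, where 5 of the 8 were no longer tested, and 0, 2 and 2 within extraction batches 5, 6 and 8. Other settings gave 8 to 12 (DESeq2 10, no filter 10, Benjamini-Hochberg 12), and leaving out a tumor gave 7 to 10. DESeq2 and the fit without a filter added LAMB4 and ITGB6. Both reached the cutoff of 3.71 CPM in HGA alone, so that these calls are no support. Benjamini-Hochberg adjustment added ITGA2, ITGA11, ITGAX and ITGB2, all lower in HGA. HGA and AGASAC with the same number are not linked by the labels beyond that number. Correlations of same-numbered tumors were −0.046 to 0.045 and 0 of 10 exceeded 0.1, which alone cannot show that the dogs differ. With that number as a block 8 members were called, with LAMB1 in place of ITGA8 (adjusted p = 0.069). ITGA8 was also lost with the extraction batch as a term, within series A and without the primary tumors of the dogs with a metastasis, and the other 7 calls were kept in these fits. Between metastases and primary tumors, 0 members were called under every alternative, leaving out each sample included (0 to 0), and with the dog as a block, in the paired fit, 0 were called and no call changed. HGA against the metastases gave 7 members, 4 when at least 10 counts in every sample were required, where 3 were no longer tested, 5 to 8 under other settings and 4 to 7 when a sample was left out. LAMA3 and LAMA5 were lost there with library size alone. Correlations reversed without the 2 farthest samples for ITGA6 and ITGB4 (0.54) and ITGAV and ITGB6 (−0.58) in HGA. The cause was not tested except where genes left the test. Depth limits members under about 3 counts per library, and 12 of 37 members were not tested in the first comparison.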
